A study of Mus musculus with 12 samples.

Results

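The collagen genes and Sparc were followed across 12 livers in 4 groups of 3 mice: wild-type and RelaΔhepStat3Δhep, each untreated or given 2% dextran sodium sulfate (DSS) in the drinking water for 6 days. Members were all rows of the count table whose gene symbol in the GENCODE vM1 annotation reads Col, digits, a, digits, together with Sparc, and whose counts summed above 0. The annotation holds 44 such symbols, 42 of them had a row, and 37 had counts (36 collagens and Sparc), out of 28151 gene rows with counts and 51609 rows in all. Col2a1, Col9a1, Col9a2, Col11a1 and Col19a1 were listed at 0 in every liver, and Col20a1 and Col27a1 were not analysed here. Of the 37 members, 34 passed the filter on low counts and were tested. Col6a4, Col22a1 and Col28a1 did not pass it.

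The RelaΔhepStat3Δhep mice carried floxed Rela and Stat3 alleles with Cre recombinase under the albumin promoter, so the deletion was directed at hepatocytes and not at the other cells of the liver. Mice called wild-type were Cre-negative littermates that carried the same floxed alleles, the background was C57BL/6, and the study used mice of both sexes at 5 to 7 weeks of age. DSS in drinking water injures the colonic epithelium and gives an acute colitis, and the liver receives the blood that drains the gut. The comparisons ask how the liver transcriptome answers colitis and how far that answer depends on hepatocyte Rela and Stat3.

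Each liver gave between 65879529 and 82850098 estimated counts. Levels are given as CPM, the count relative to the library size, scaled by the trimmed mean of M-values (TMM). The count that 3 reads would give lay between 0.0359 and 0.0478 CPM per liver. Rela stood at 39.8 to 55.5 CPM in wild-type livers and at 39.5 to 62.3 CPM in livers labelled RelaΔhepStat3Δhep, and Stat3 at 45.7 to 329.5 and 43.0 to 74.8 CPM, so neither gene-level count separated the genotypes and the label could not be checked from them. Alb stood at 62890 to 150300 CPM, so hepatocyte RNA was abundant in every liver. Xist stood at 902.6 to 1283 CPM in the 3 DSS-treated livers labelled RelaΔhepStat3Δhep, where 4 Y-linked transcripts (Ddx3y, Uty, Kdm5d and Eif2s3y) summed to at most 0.120 CPM. Untreated wild-type replicate 3 had 1143 CPM of Xist beside 30.1 CPM of those transcripts, and the other 8 livers had at most 29.0 CPM of Xist and at least 175.1 CPM of Y-linked transcripts. With DSS in livers labelled RelaΔhepStat3Δhep treatment and sex therefore cannot be told apart, nor genotype and sex between the genotypes after DSS, nor sex and the difference in DSS response. The covariate for sex-linked transcripts used below (Xist above 100 CPM) differed between livers of 1 group only, the untreated wild-type livers. Every value given with it therefore rests on untreated wild-type replicate 3 against the other livers of its group, and cannot separate sex from treatment or genotype. DSS-treated wild-type replicate 2 had a TMM factor of 0.758 against 0.953 to 1.13 in the other 11 livers. It was the lowest of its group for 12 of the 22 members at a mean of 1 CPM or more and the highest for 8.

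Collagens are proteins of 3 chains wound into a triple helix, and each chain repeats a glycine followed by 2 other residues. Fibrillar collagens (types I, III and V among them) form the tensile fibres of connective tissue, type IV forms the network of basement membranes, type VI forms beaded filaments, and fibril-associated collagens decorate the fibres. In the liver most fibrillar collagen is made by stellate cells and portal fibroblasts, type IV also by the sinusoidal endothelium, and type XVIII, whose C-terminal fragment is endostatin, by hepatocytes. SPARC (osteonectin) is a secreted glycoprotein that binds collagen and calcium and takes part in fibril assembly. In the longest annotated coding sequence of each gene, uninterrupted runs of triplets that each open with a glycine codon reached 338 triplets in Col1a1, Col1a2 and Col5a1, 344 in Col3a1 and 339 in Col5a2. They reached 40 triplets in Col4a1, 66 in Col4a2 and 30 in Col18a1, where interruptions break the repeat, and 2 in Sparc, which is no collagen.

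The windows at the start sites are shown for the members on which the results turn: Sparc, the genes of the type IV chains Col4a1 and Col4a2, which lie head to head, and the genes of the fibrillar chains Col3a1 and Col1a2. Each runs from 250 bases before to 50 bases after an annotated start, was taken from RefSeq (GRCm38.p6) and is written 5′ to 3′ on the gene's strand. Capitals mark the 78 bases that the Col4a1 and Col4a2 windows share, each being the reverse complement of the other, and, in Col3a1 and Col1a2, matches to the motifs named after the sequences. The Col4a1 and Col4a2 windows also hold CCAAT and GGGCGG, which are not marked there. The Sparc window (chr11:55420031-55420330, minus strand) has no capitals because it held no match.
Sparc: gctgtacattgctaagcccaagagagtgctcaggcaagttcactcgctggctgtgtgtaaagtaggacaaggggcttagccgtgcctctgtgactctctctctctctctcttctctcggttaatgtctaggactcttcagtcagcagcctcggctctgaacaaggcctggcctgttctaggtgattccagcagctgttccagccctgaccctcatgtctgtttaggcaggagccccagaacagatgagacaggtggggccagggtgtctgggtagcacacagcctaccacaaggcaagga
Col4a1: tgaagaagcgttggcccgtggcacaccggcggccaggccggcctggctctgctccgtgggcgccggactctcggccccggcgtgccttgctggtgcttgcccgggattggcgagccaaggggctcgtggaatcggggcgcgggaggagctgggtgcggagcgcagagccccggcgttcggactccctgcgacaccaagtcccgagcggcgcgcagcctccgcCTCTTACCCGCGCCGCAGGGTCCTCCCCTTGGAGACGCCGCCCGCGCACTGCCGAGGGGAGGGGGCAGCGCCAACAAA
Col4a2: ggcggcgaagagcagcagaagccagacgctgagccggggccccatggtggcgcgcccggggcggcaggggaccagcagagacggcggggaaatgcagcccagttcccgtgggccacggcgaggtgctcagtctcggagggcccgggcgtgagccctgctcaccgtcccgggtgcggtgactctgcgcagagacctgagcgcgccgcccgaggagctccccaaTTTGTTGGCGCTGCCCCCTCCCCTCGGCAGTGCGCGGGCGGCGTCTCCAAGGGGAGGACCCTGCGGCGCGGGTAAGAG
Col3a1: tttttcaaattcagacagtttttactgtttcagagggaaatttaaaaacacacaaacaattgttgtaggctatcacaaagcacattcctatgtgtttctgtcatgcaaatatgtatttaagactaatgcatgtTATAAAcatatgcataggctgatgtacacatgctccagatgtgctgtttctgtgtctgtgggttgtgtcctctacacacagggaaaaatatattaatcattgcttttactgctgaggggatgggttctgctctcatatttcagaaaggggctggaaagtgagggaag
Col1a2: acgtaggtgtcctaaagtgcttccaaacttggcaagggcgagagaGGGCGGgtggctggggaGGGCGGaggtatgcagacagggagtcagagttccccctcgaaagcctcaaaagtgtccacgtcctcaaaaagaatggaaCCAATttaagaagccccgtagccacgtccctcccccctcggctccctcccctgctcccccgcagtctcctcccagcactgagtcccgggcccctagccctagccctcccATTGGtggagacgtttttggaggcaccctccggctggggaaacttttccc

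The Col4a1 window covers chr8:11312777-11313076 on the minus strand and the Col4a2 window chr8:11312555-11312854 on the plus strand. The Col3a1 window covers chr1:45311288-45311587 and the Col1a2 window chr6:4505368-4505667, both on the plus strand. RefSeq windows were found for 30 of the 37 members (32 windows), and Col1a1, Col5a2, Col14a1, Col12a1, Col4a3, Col9a3 and Col22a1 had none in the table. On both strands, GGGCGG was present in 20 of the 32 windows (62.5%) against 35.7% of all 32851 windows, CCAAT in 11 (34.4%) against 37.4%, and TATAAA in 5 (15.6%) against 13.6%. The motif TTCCNGGAA, a narrow form of the site to which STAT factors bind, was in 0 of the 32 windows against 1.15% of all. Wider forms of that site were not searched. GGNNTTTCC, a part of the NF-κB consensus, was in 2 (6.25%), those of Col17a1 and Col6a4, against 5.82%. TGANTCA, to which AP-1 binds, was in 1 (Col6a1, 3.12%) against 7.81%, and GTCTAGAC, to which SMAD factors bind, was in 0 against 0.213%. These motifs do not overlap one another in the windows shown, a match is a description of the letters only, and no match says nothing of the factor.

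By level per length, the members spanned a wide range. Col18a1 led at a mean of 166.0 CPM per kb of exon, followed by Sparc at 19.4, Col14a1 at 12.8, Col4a1 at 9.61, Col3a1 at 5.90 and Col4a2 at 4.93. Col18a1 alone held 61.2% to 79.9% of the summed CPM of the 37 members. On the CPM scale, 12 members had a mean of 10 or more, 22 of 1 or more and 15 less than 1, down to 0.0226 for Col28a1. Counts were deposited without a statement of strand, and Slc19a1 on the opposite strand overlaps Col18a1, Gm17329 overlaps Col1a1, Nt5dc1 overlaps Col10a1 and Tcfl5 overlaps Col9a3, so reads of these pairs may not be told apart. Because these are bulk livers, fewer cells of a type and less RNA per cell cannot be told apart in any of the values.

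**Figure D1:**
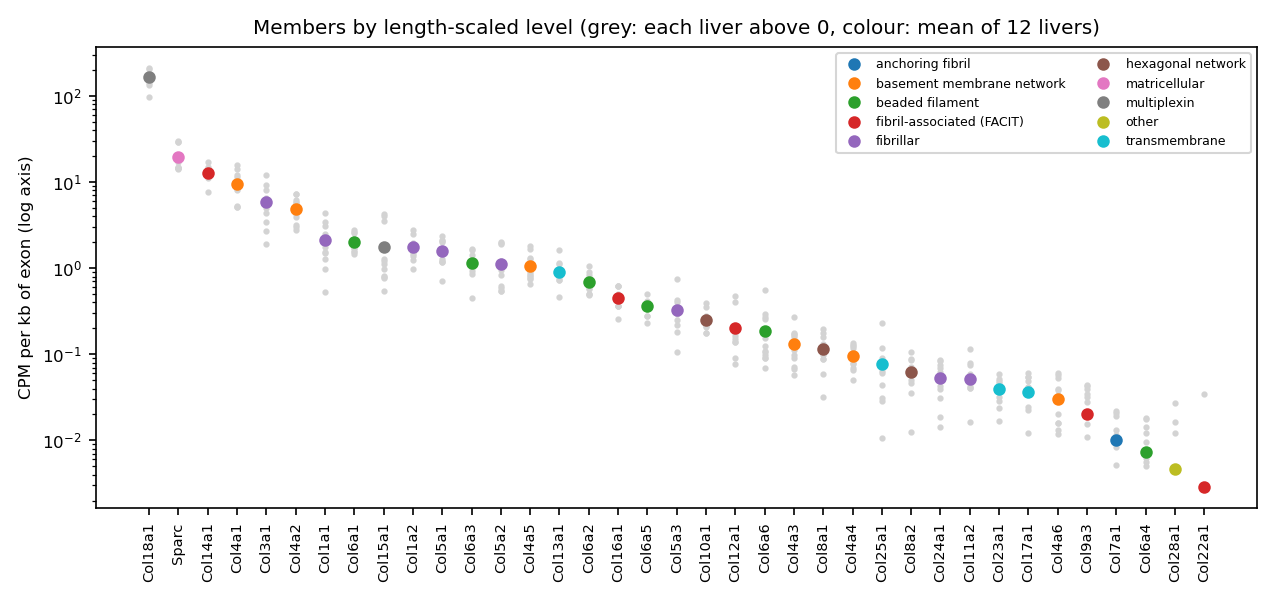
Level of the 37 members in CPM per kb of exon on a log axis, ordered by their mean over 12 livers (coloured points, by collagen class) with each liver above 0 in grey. Col18a1 stands at 166.0 CPM per kb and Sparc next at 19.4.

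Sparc was lower in DSS-treated than in untreated wild-type livers, and lower in untreated livers labelled RelaΔhepStat3Δhep than in untreated wild-type livers, by a like amount. Both comparisons share the untreated wild-type livers. The gene lies at chr11:55208002-55233582 on the minus strand (mm9, vM1). It stood at 98.0, 100.1 and 99.4 CPM in untreated wild-type livers and at 48.6, 49.5 and 47.5 CPM in DSS-treated wild-type livers. In livers labelled RelaΔhepStat3Δhep it stood at 48.9, 48.7 and 50.5 CPM untreated and at 70.0, 62.9 and 58.2 CPM after DSS. The untreated wild-type livers were thus the highest, the DSS-treated livers labelled RelaΔhepStat3Δhep came next without overlap, and the 2 remaining groups overlapped at the bottom. The order of the means was 99.2 ± 1.08, 63.7 ± 5.93, 49.4 ± 0.974 and 48.5 ± 1.04 CPM (SD, n = 3).

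In edgeR's quasi-likelihood test with Benjamini-Hochberg adjustment over 17652 genes, Sparc fell by 1.03 on the log2 scale with DSS in wild-type livers (SE 0.11, adjusted p = 0.00215). Untreated, it was lower in livers labelled RelaΔhepStat3Δhep by a log2 difference of -1.01 (SE 0.11, adjusted p = 0.00324). With DSS in livers labelled RelaΔhepStat3Δhep the log2 fold change was 0.37 (SE 0.11, adjusted p = 0.0536), and after DSS the log2 difference between genotypes was 0.39 (SE 0.11, adjusted p = 0.130), neither past the threshold of 0.05. DESeq2 called both, at adjusted p of 0.0142 and 0.0130, and limma-voom called the first alone, at adjusted p of 0.0433. Over the alternatives the adjusted p of the 2 ran from 0.0142 to 0.526 and from 0.0130 to 0.796. The DSS response differed between the genotypes by 1.40 on the log2 scale (SE 0.15, adjusted p = 0.00248). The fall in wild-type livers was called in all 12 fits that left out 1 liver and in all 11 other alternatives, at adjusted p from 2.58e-18 to 0.0307. Among the 8 livers with low Xist, the untreated genotype difference was -0.98 with an adjusted p of 0.0720 (range over the alternatives 1.77e-16 to 0.0720), and with a covariate for sex-linked transcripts the difference in DSS response was 1.39 with an adjusted p of 0.227 (range 1.90e-16 to 0.227).

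The livers of each group lay close together for Sparc. Its coefficient of variation averaged 3.63% over the 4 groups, while the median was 12.9% over 7072 genes at a mean of 10 CPM or more and 20.3% over the 12 members at that level. Only 11 of those 7072 genes (0.156%) had a lower value. Beside the Sparc values, the summed CPM of 12 hepatic stellate cell markers ran from 537.6 to 648.2 in untreated wild-type livers, from 434.2 to 659.0 after DSS, from 528.8 to 601.9 in untreated livers labelled RelaΔhepStat3Δhep and from 633.0 to 831.0 after DSS. The sum of 12 sinusoidal endothelial markers ran from 671.1 to 760.3, 386.1 to 772.7, 625.9 to 716.2 and 631.0 to 795.6 CPM in the same order. Of the endothelial list, Ehd3 fell with DSS in wild-type livers, the comparison in which Sparc fell, by 0.79 on the log2 scale (SE 0.15, edgeR adjusted p = 0.0279). It was not called without untreated wild-type replicate 1 or 2, DSS-treated wild-type replicate 3 or untreated replicate 1 of the livers labelled RelaΔhepStat3Δhep, and ran from -0.90 to -0.70 over the 12 fits. Nor was Ehd3 called in the fit of only the groups compared (-0.79, edgeR adjusted p = 0.136, range over the alternatives 6.10e-05 to 0.136). No defining marker of either list was at 0 (Lrat, Reln, Des and Stab2 were present in every liver), and their part in the Sparc result was not tested.

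**Figure D2:**
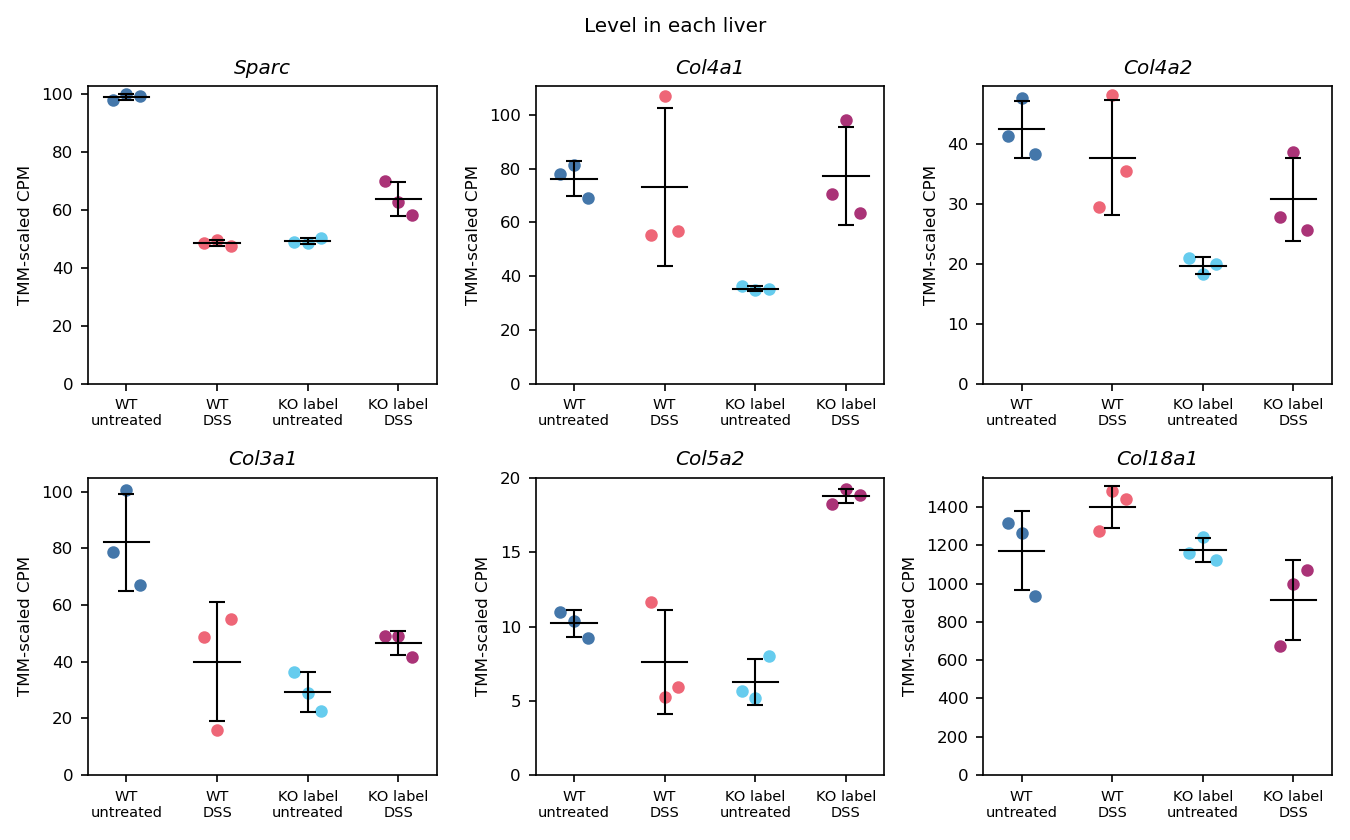
TMM-scaled CPM of 6 members in each liver (points), with the mean and SD of 3 livers (black). Sparc sits at 98.0 to 100.1 CPM in untreated wild-type livers and at 47.5 to 50.5 CPM in both DSS-treated wild-type and untreated livers labelled RelaΔhepStat3Δhep, and Col5a2 sits above all other livers at 18.3 to 19.2 CPM in the DSS-treated livers labelled RelaΔhepStat3Δhep.

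Among the fibrillar collagens, the chains of the tensile fibres, Col3a1 (chr1:45368383-45406551), the only chain of type III collagen, showed the widest separation of the untreated genotypes. It stood at 78.6, 100.8 and 67.2 CPM in untreated wild-type livers and at 48.7, 16.1 and 55.2 CPM after DSS. In livers labelled RelaΔhepStat3Δhep it stood at 36.5, 28.9 and 22.6 CPM untreated and at 49.2, 49.0 and 41.8 CPM after DSS. The untreated wild-type livers lay above all other livers. The log2 difference between untreated genotypes was -1.49 (SE 0.37, adjusted p = 0.171 in edgeR) and with DSS in wild-type livers -1.04 (SE 0.36, adjusted p = 0.210), so neither passed, although DESeq2 called both at adjusted p of 0.00350 and 0.0463.

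The 2 chains of type I collagen were also highest on average in untreated wild-type livers and lowest in untreated livers labelled RelaΔhepStat3Δhep, with more overlap. Col1a1 (chr11:94797538-94814356) stood at 22.4, 28.7 and 9.96 CPM in untreated wild-type livers, at 16.5, 3.47 and 20.1 CPM after DSS, at 10.2, 8.43 and 6.48 CPM in untreated livers labelled RelaΔhepStat3Δhep and at 15.1, 12.9 and 11.5 CPM after DSS. Col1a2 (chr6:4454814-4491543) stood at 30.7, 33.9 and 20.3 CPM, at 22.8, 11.9 and 23.4 CPM, at 17.0, 17.6 and 14.97 CPM and at 18.9, 24.0 and 19.2 CPM in the same order. For both, untreated wild-type replicate 3 was the lowest liver of its group and DSS-treated wild-type replicate 2 the lowest of all 12. Between the untreated genotypes the log2 difference was -1.28 for Col1a1 (SE 0.55, edgeR adjusted p = 0.405) and -0.78 for Col1a2 (SE 0.24, edgeR adjusted p = 0.263).

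Type V collagen, which nucleates the fibres, has 3 members here. Col5a2 (chr1:45431166-45560127) was higher with DSS in livers labelled RelaΔhepStat3Δhep. It stood at 10.98, 10.4 and 9.25 CPM in untreated wild-type livers and at 11.6, 5.25 and 5.95 CPM after DSS. In livers labelled RelaΔhepStat3Δhep it stood at 5.65, 5.16 and 8.04 CPM untreated and at 18.3, 19.2 and 18.9 CPM after DSS. The last 3 livers lay above all other 9.

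Col5a2 rose with DSS in livers labelled RelaΔhepStat3Δhep by 1.58 on the log2 scale, 2.99-fold (SE 0.26, edgeR adjusted p = 0.00603), and its DSS response was higher than in wild-type livers by 2.00 (SE 0.37, edgeR adjusted p = 0.0431). After DSS, the log2 difference between the genotypes was 1.30 (SE 0.26, edgeR adjusted p = 0.0600). The rise was called in all 12 fits with 1 liver left out, and the difference in response only without DSS-treated wild-type replicate 1 or untreated replicate 3 of the livers labelled RelaΔhepStat3Δhep, at log2 values from 1.78 to 2.45 over the 12 fits and adjusted p from 0.000178 to 0.546 over all alternatives. With the covariate for sex-linked transcripts the rise was 1.79 at an edgeR adjusted p of 0.270 (range over the alternatives 3.86e-06 to 0.270). Col5a1 (chr2:27741945-27895034), the partner chain, stood at 17.0, 19.9 and 14.3 CPM in untreated wild-type livers, at 12.8, 6.08 and 17.7 CPM after DSS, at 10.3, 10.1 and 12.6 CPM in untreated livers labelled RelaΔhepStat3Δhep and at 10.9, 17.9 and 9.98 CPM after DSS. Its DSS responses were -0.48 (SE 0.32) and 0.23 (SE 0.32) on the log2 scale, both within the spread between livers (edgeR adjusted p = 0.539 and 0.714). Its difference in response was 0.71 (SE 0.46, edgeR adjusted p = 0.460). Col5a3, the third chain, had a log2 fold change with DSS in livers labelled RelaΔhepStat3Δhep of 1.17 (SE 0.38, edgeR adjusted p = 0.0802), where the groups did not overlap, and a difference in response of 1.72 (SE 0.53, edgeR adjusted p = 0.161), neither past the threshold in edgeR, though DESeq2 called both. The chains were not tested against each other.

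Over the 8 fibrillar members, the median log2 fold change with DSS was -0.56 in wild-type livers, with 8 of 8 negative, and 0.49 in livers labelled RelaΔhepStat3Δhep, with 6 of 8 positive. The median over all 17652 tested genes was 0.02 and -0.01 in these comparisons. Between the untreated genotypes the fibrillar median was -0.74, with 6 of 8 negative. The summed CPM of the class was 124.2 to 196.4 in untreated wild-type livers, 44.9 to 125.0 after DSS, 67.6 to 82.0 in untreated livers labelled RelaΔhepStat3Δhep and 104.0 to 126.0 after DSS. Col3a1 and Col5a2 are neighbours on chromosome 1, in opposite orientation with 24614 bases between their ends and no protein-coding gene between them.

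Among the type IV chains of the basement membrane, Col4a1 and Col4a2 were lowest in the untreated livers labelled RelaΔhepStat3Δhep. Col4a1 (chr8:11198423-11312826, minus strand) stood at 78.1, 81.5 and 69.1 CPM in untreated wild-type livers and at 55.3, 107.1 and 56.9 CPM after DSS. It stood at 36.2, 34.6 and 35.3 CPM in untreated livers labelled RelaΔhepStat3Δhep and at 70.4, 97.9 and 63.5 CPM after DSS. The untreated livers labelled RelaΔhepStat3Δhep lay below the other 9 livers, among which the groups overlapped. Col4a1 rose with DSS in livers labelled RelaΔhepStat3Δhep by 1.13 on the log2 scale, 2.19-fold (SE 0.24, edgeR adjusted p = 0.0155).

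This rise of Col4a1 was not called without untreated replicate 2, untreated replicate 3 or DSS-treated replicate 2 of the livers labelled RelaΔhepStat3Δhep, nor with the covariate for sex-linked transcripts, where it was 1.34 at an edgeR adjusted p of 0.326 (range over the alternatives 0.000328 to 0.326). Without these 3 livers in turn the log2 fold change was 1.12, 1.13 and 0.92, at adjusted p of 0.0736, 0.0555 and 0.0521. Between the untreated genotypes the log2 difference was -1.11 (SE 0.24, edgeR adjusted p = 0.115).

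Col4a2 (chr8:11312805-11449287, plus strand) starts within the first bases of Col4a1, which it overlaps by 22 bases, so a small part of their reads may not be told apart. It stood at 41.3, 47.6 and 38.3 CPM in untreated wild-type livers, at 29.4, 48.1 and 35.4 CPM after DSS, at 20.9, 18.2 and 19.9 CPM in untreated livers labelled RelaΔhepStat3Δhep and at 27.8, 38.6 and 25.7 CPM after DSS. The untreated livers labelled RelaΔhepStat3Δhep were again below the other 9. The log2 difference between untreated genotypes was -1.11 (SE 0.19, edgeR adjusted p = 0.0740) and with DSS in livers labelled RelaΔhepStat3Δhep 0.64 (SE 0.19, edgeR adjusted p = 0.0612). DESeq2, limma-voom and the edgeR fit of only the groups compared called both Col4a1 and Col4a2 between the untreated genotypes. Over the 6 type IV members, 6 of 6 were negative between the untreated genotypes, with a median of -0.78, and 5 of 6 positive with DSS in livers labelled RelaΔhepStat3Δhep, with a median of 0.42.

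Among genes of chains that pair in 1 trimer, the ratio set 1 group apart for types IV and V but not for types I and VI. Per kb of exon, the ratio of Col4a1 to Col4a2 was 2.46, 2.46 and 2.40 in DSS-treated livers labelled RelaΔhepStat3Δhep. It was 1.68, 1.85 and 1.72 in the untreated livers with that label, 1.84, 1.66 and 1.75 in untreated wild-type livers and 1.82, 2.16 and 1.56 after DSS, so the first group lay above the other 9 livers. The ratio of Col5a1 to Col5a2 was 0.672, 1.05 and 0.597 in DSS-treated livers labelled RelaΔhepStat3Δhep, below the other 9 livers, which ran from 1.25 to 3.36. The ratio of Col1a1 to Col1a2 ran from 0.539 to 1.59, with all 4 groups overlapping, and that of Col6a1 to Col6a2 from 2.35 to 3.60. These ratios are a description, with no test.

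**Figure D3:**
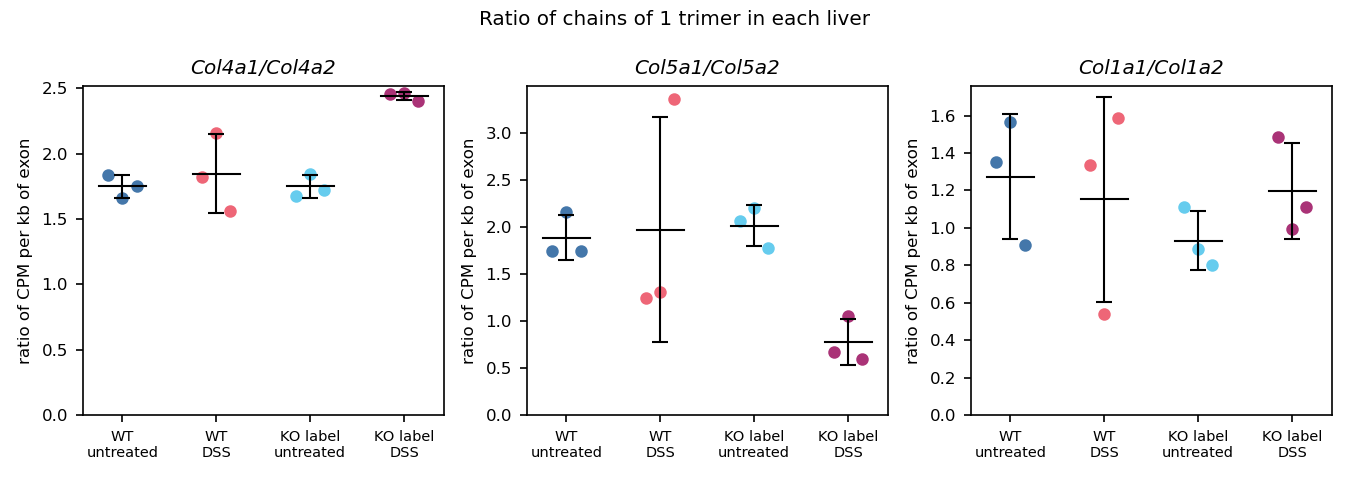
Ratio of 2 chains, each in CPM per kb of exon, in each liver (points) with the mean and SD of 3 livers (black). The DSS-treated livers labelled RelaΔhepStat3Δhep lie at 2.40 to 2.46 for Col4a1 to Col4a2 and at 0.597 to 1.05 for Col5a1 to Col5a2, outside the range of the other 9 livers in both.

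The multiplexins are collagens with many short helical stretches found at basement membranes. Both members, Col18a1 and Col15a1, had a positive log2 fold change with DSS in wild-type livers (0.26 and 0.17) and a negative one in livers labelled RelaΔhepStat3Δhep (-0.36 and -0.33), none past the threshold. Col18a1 (chr10:76514923-76629293) stood at 1315, 1264 and 934.8 CPM in untreated wild-type livers and at 1275, 1486 and 1443 CPM after DSS. In livers labelled RelaΔhepStat3Δhep it stood at 1158, 1243 and 1126 CPM untreated and at 674.7, 998.5 and 1069 CPM after DSS. The DSS-treated groups did not overlap, with a log2 difference of -0.62 between the genotypes (SE 0.21), which did not pass in edgeR (adjusted p = 0.218) and passed in DESeq2 (adjusted p = 0.0329). Col15a1 (chr4:47221033-47326039) varied widely within the wild-type groups, at 7.18, 27.1 and 11.2 CPM untreated and 3.47, 25.5 and 22.3 CPM after DSS, and stood at 8.20, 4.83 and 7.65 CPM and at 5.18, 4.98 and 6.27 CPM in the livers labelled RelaΔhepStat3Δhep. Its groups overlapped in every comparison. Beside Col18a1, the 8 hepatocyte markers summed to 103400 to 159500 CPM in DSS-treated wild-type livers and to 146900 to 187000 CPM in DSS-treated livers labelled RelaΔhepStat3Δhep. In untreated livers labelled RelaΔhepStat3Δhep the sum was 146900 to 162700 CPM, which overlapped that after DSS. Alb, at 62890 to 150300 CPM, made up most of these sums. Hnf4a of the same list, a hepatocyte transcription factor, fell with DSS in livers labelled RelaΔhepStat3Δhep by 0.70 on the log2 scale (SE 0.18, edgeR adjusted p = 0.0325), kept in 6 of 12 fits with 1 liver left out, each of the 6 livers of that comparison ending the call. With the covariate for sex-linked transcripts it was -0.49 and not called (edgeR adjusted p = 0.612, range over the alternatives 9.03e-05 to 0.612). Their part in the result was not tested.

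Of the fibril-associated and beaded-filament members, Col14a1 and Col6a3 had the most counts. Col14a1 (chr15:55139305-55352358), a fibril-associated collagen, stood at 119.6, 101.8 and 93.2 CPM in untreated wild-type livers, at 91.7, 53.4 and 84.4 CPM after DSS, at 93.1, 83.9 and 80.6 CPM in untreated livers labelled RelaΔhepStat3Δhep and at 89.6, 104.7 and 78.4 CPM after DSS. The untreated wild-type livers lay just above both the DSS-treated wild-type and the untreated livers labelled RelaΔhepStat3Δhep. With DSS in wild-type livers its log2 fold change was -0.46 (SE 0.19, edgeR adjusted p = 0.293). Col6a3 (chr1:92663435-92740529), a chain of the beaded filaments, stood at 19.9, 19.7 and 14.0 CPM, at 15.2, 5.43 and 17.1 CPM, at 13.1, 14.0 and 10.1 CPM and at 11.9, 13.9 and 11.2 CPM in the same order of groups, which overlapped in every comparison. Of the beaded-filament, transmembrane and hexagonal-network classes (5, 4 and 3 tested members), none had a member past the adjusted threshold in edgeR in any comparison. At an unadjusted p under 0.05 only Col6a5 and Col25a1 of these classes passed anywhere, and DESeq2 called none of them. The transmembrane members summed to 3.39 to 9.78 CPM and the hexagonal-network members to 1.23 to 2.17 CPM over the 12 livers.

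The members between 1 and 10 CPM included 2 that DESeq2 called between the untreated genotypes and edgeR did not. Col4a5, a type IV chain encoded on the X chromosome beside Col4a6, ran from 8.72 to 12.1 CPM in untreated wild-type livers, 5.86 to 8.57 CPM after DSS, 4.35 to 5.53 CPM in untreated livers labelled RelaΔhepStat3Δhep and 5.04 to 6.82 CPM after DSS. Its log2 difference between the untreated genotypes was -1.09 (SE 0.20, edgeR adjusted p = 0.0740). Col5a3 of type V collagen ran from 2.01 to 5.14, 1.72 to 2.49, 0.717 to 1.498 and 2.15 to 2.91 CPM in the same order, with a log2 difference between the untreated genotypes of -1.43 (SE 0.38, edgeR adjusted p = 0.197). In both genes the untreated livers labelled RelaΔhepStat3Δhep lay below every wild-type liver. Col6a1 and Col6a2, which form the type VI filament with Col6a3, ran from 6.45 to 12.3 CPM and from 4.08 to 8.82 CPM over the 12 livers. Col12a1, a fibril-associated collagen, ran from 2.10 to 7.27 CPM in wild-type livers, where replicate 2 was the highest of both groups, and from 1.19 to 3.01 CPM in the livers labelled RelaΔhepStat3Δhep. Col22a1 had counts in DSS-treated wild-type replicate 2 only, at 0.318 CPM, and Col28a1 in 3 livers.

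Read over all 34 tested members, few passed the adjusted threshold. With DSS in wild-type livers 1 member passed in edgeR, Sparc, lower, where 0.232% of all tested genes passed in that direction. At an unadjusted p under 0.05, 5 members were lower (14.7%; all genes 6.19%). In 5 members every DSS-treated wild-type liver lay below every untreated one (all genes 9.21%), namely Col14a1, Sparc, Col3a1, Col4a5 and Col6a5, and in 1 member, Col10a1, every one lay above (all genes 9.49%). Of the 34, 28 had a negative and 6 a positive log2 fold change, with a median of -0.40. Without untreated wild-type replicate 3 the count of members whose groups did not overlap, lower, was 12 (all genes 15.4%), and without DSS-treated wild-type replicate 2 it was 8 (all genes 15.1%).

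With DSS in livers labelled RelaΔhepStat3Δhep, 2 members passed in edgeR, Col4a1 and Col5a2, both higher, where 4.57% of all genes passed in that direction. At an unadjusted p under 0.05, 5 members were higher (14.7%), near the background of 14.0%. In 9 members every DSS-treated liver lay above every untreated one (26.5%; all genes 17.8%), and in 2, Col18a1 and Col17a1, below (5.88%; all genes 14.0%). The median over the members was 0.16, with 21 positive and 13 negative, and it was 0.04 without untreated replicate 3 or DSS-treated replicate 2 of the livers labelled RelaΔhepStat3Δhep, while with the covariate for sex-linked transcripts it was 0.48. DESeq2 called 5 members (Col4a1, Col4a2, Col5a2, Col5a3 and Sparc; 14.7%, near the 13.1% of all genes), and with the covariate for sex-linked transcripts edgeR called 0. Without DSS-treated wild-type replicate 2 edgeR called 4 (Col3a1 and Col4a2 besides), and without untreated or DSS-treated wild-type replicate 1 it called 3, with Col5a3 or Col4a2 added.

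Between the untreated genotypes, 27 of the 34 members had a negative log2 difference (79.4%; all genes 49.8%), and few passed. Sparc passed in edgeR, where 0.0283% of all genes passed as lower, and 9 members (26.5%) were lower at an unadjusted p under 0.05, against 6.23% of all genes. These were Sparc, Col1a1, Col1a2, Col3a1, Col5a2, Col5a3, Col4a1, Col4a2 and Col4a5. In 12 members (35.3%) every untreated liver labelled RelaΔhepStat3Δhep lay below every untreated wild-type liver, against 10.7% of all genes, and in 1, Col11a2, above, against 9.56%. The median over the 34 was -0.47. Without untreated wild-type replicate 3, 18 members did not overlap as lower (all genes 17.8%). DESeq2 called 6 members (all genes 1.89%), and edgeR called 0 among the livers with low Xist. With DSS-treated wild-type replicate 2 left out, edgeR called 4 members, Sparc, Col3a1, Col4a1 and Col4a2, and without DSS-treated wild-type replicate 1 or DSS-treated replicate 2 of the livers labelled RelaΔhepStat3Δhep it called 2, Sparc and Col4a2.

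After DSS, edgeR called 0 members between the genotypes, where 0.187% of all genes passed as higher and 0.147% as lower in the livers labelled RelaΔhepStat3Δhep. At an unadjusted p under 0.05, 3 members were higher (8.82%; all genes 7.18%), Sparc, Col5a2 and Col6a5, and 3 were lower (all genes 7.08%), Col18a1, Col15a1 and Col25a1. The groups did not overlap in 4 members as higher (all genes 8.80%) and in 2 as lower (all genes 7.98%). DESeq2 called 3 (Col18a1, Col5a2 and Sparc; all genes 3.30%) and limma-voom 1 (Col5a2; all genes 0.164%), and without DSS-treated wild-type replicate 1 edgeR called 2 (Col5a2 and Col15a1). The median over the members was -0.04 and its sign did not hold. It was 0.45 with the covariate for sex-linked transcripts, 0.11 and 0.19 without DSS-treated wild-type replicate 1 or 3, and 0.01 and 0.07 without DSS-treated replicate 1 or 3 of the livers labelled RelaΔhepStat3Δhep. Without DSS-treated wild-type replicate 2 the members that did not overlap were 5 as higher and 8 as lower (all genes 15.4% and 13.9%).

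For the difference between the genotypes in the DSS response, edgeR called 2 members, Sparc and Col5a2, both positive, where 0.244% of all genes passed in that direction. At an unadjusted p under 0.05, 9 members were positive (26.5%; all genes 8.83%), and of the 34, 27 were positive with a median of 0.52 (1.07 with the covariate for sex-linked transcripts). This comparison is built from the same 12 livers as the 4 others, so their counts are not independent of each other. With the covariate for sex-linked transcripts edgeR called 0 members here. Without DSS-treated wild-type replicate 2 it called Sparc and Col4a1.

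**Figure D4:**
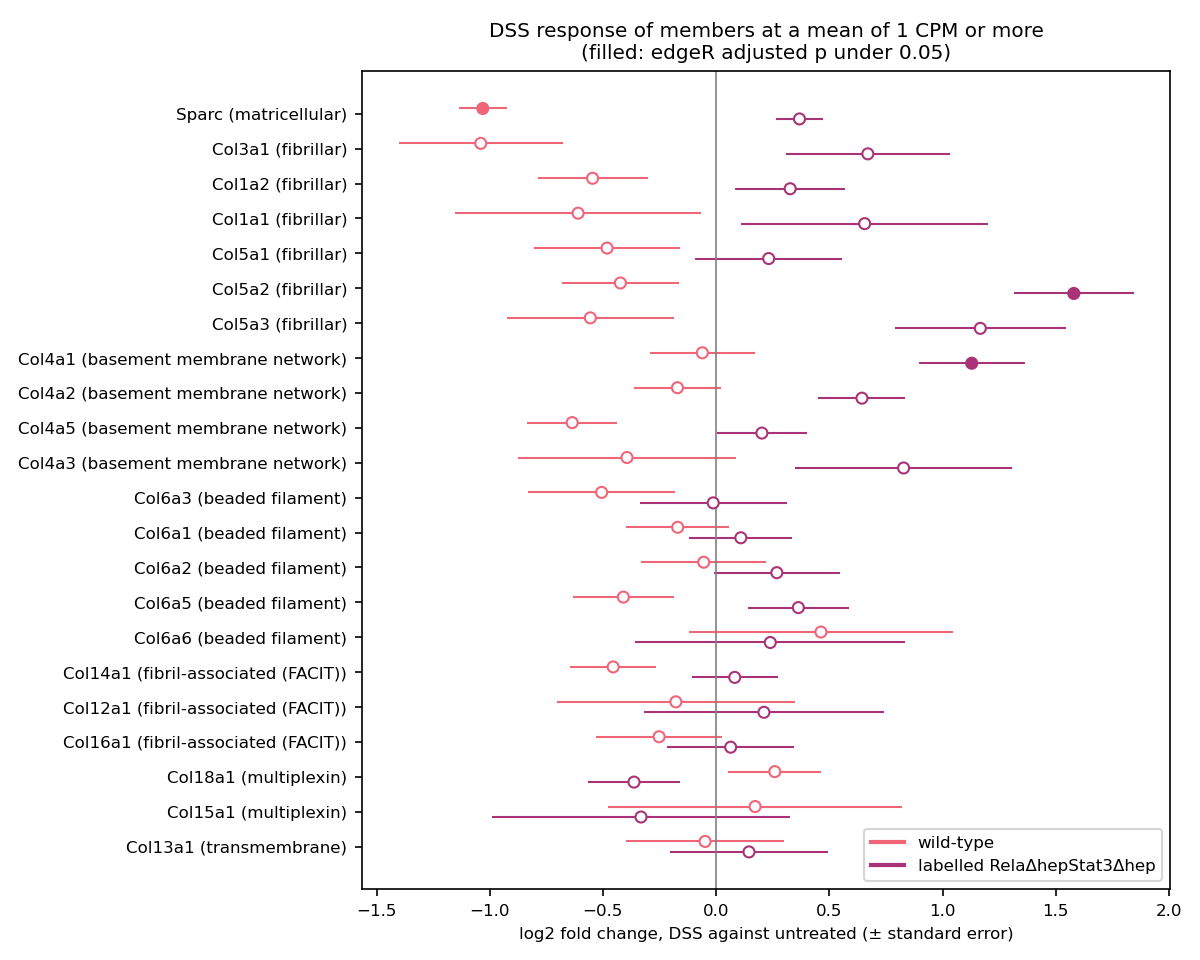
Log2 fold change with DSS of the 22 members at a mean of 1 CPM or more, in wild-type livers and in livers labelled RelaΔhepStat3Δhep, with standard errors; filled points have an edgeR adjusted p under 0.05. Sparc is filled at -1.03 in wild-type livers, and Col5a2 at 1.58 and Col4a1 at 1.13 in livers labelled RelaΔhepStat3Δhep.

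Among the genes that fold and modify collagen chains, Serpinh1 fell with DSS in wild-type livers and rose with DSS in livers labelled RelaΔhepStat3Δhep. It encodes HSP47, the chaperone of procollagen in the endoplasmic reticulum, and lies at chr7:106493885-106501740. It stood at 23.9, 26.1 and 17.0 CPM in untreated wild-type livers and at 12.7, 10.1 and 11.97 CPM after DSS. In livers labelled RelaΔhepStat3Δhep it stood at 15.3, 13.9 and 13.4 CPM untreated and at 18.4, 22.3 and 26.3 CPM after DSS, so that DSS separated the livers in both genotypes without overlap, downward in wild-type and upward in the other.

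Serpinh1 fell by 0.94 on the log2 scale with DSS in wild-type livers (SE 0.18, edgeR adjusted p = 0.0302) and rose by 0.65 in livers labelled RelaΔhepStat3Δhep (SE 0.18, edgeR adjusted p = 0.0452). The difference in DSS response was 1.59 (SE 0.25, edgeR adjusted p = 0.0177), and after DSS the gene was higher in the livers labelled RelaΔhepStat3Δhep by 0.94 (SE 0.18, edgeR adjusted p = 0.0486). With 1 liver left out, these calls were kept in 5, 4, 9 and 2 of 12 fits, and the 3 that use the DSS-treated livers labelled RelaΔhepStat3Δhep were not called with the covariate for sex-linked transcripts, at 1.21, 2.31 and 1.501 on the log2 scale and edgeR adjusted p of 0.205, 0.114 and 0.225. Over the alternatives the adjusted p of the 4 calls ran from 0.000156 to 0.136, 0.0141 to 0.205, 4.19e-06 to 0.114 and 0.000246 to 0.225. The log2 values with 1 liver left out ran from -1.11 to -0.82, 0.52 to 0.76, 1.46 to 1.76 and 0.81 to 1.07. The other 17 tested genes of collagen folding and hydroxylation passed in no comparison in edgeR. Over the 5 comparisons DESeq2 called 7 of the list's 90 tests (7.78%; all genes 5.43%), of which Leprel1, Creb3l2 and P4hb had 1 each and Serpinh1 the rest. Of the same 90 tests limma-voom called 3 (all genes 2.49%). The list's median log2 fold change with DSS was 0.15 in wild-type livers and -0.06 in livers labelled RelaΔhepStat3Δhep.

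Of 9 tested genes of procollagen trimming and crosslinking, 2 rose with DSS in livers labelled RelaΔhepStat3Δhep in edgeR and none fell, with a median of 0.32, where 7.03% of all genes passed in either direction. DESeq2 called 4 of the 9 in that comparison (Lox, Loxl4, Pcolce2 and Tgm2; all genes 13.1%) and limma-voom 3 (all genes 10.2%). Both encode lysyl oxidases, which crosslink collagen fibres. Loxl4 stood at 4.28, 1.56 and 3.44 CPM untreated and at 41.2, 40.7 and 62.7 CPM after DSS, against 3.57 to 7.84 CPM and 5.17 to 13.7 CPM in untreated and DSS-treated wild-type livers. It rose by 3.96 on the log2 scale (SE 0.48, edgeR adjusted p = 0.00187) and was called in all 12 fits with 1 liver left out. Lox stood at 0.386, 0.152 and 0.324 CPM untreated and at 1.60, 0.850 and 0.791 CPM after DSS in these livers, against 0.784 to 1.45 CPM and 0.525 to 0.936 CPM in untreated and DSS-treated wild-type livers, a rise of 1.90 (SE 0.45, edgeR adjusted p = 0.0249) at counts of 11 to 112 per liver. The rise of Lox was not called without untreated replicate 2 or 3 or DSS-treated replicate 1 of the livers labelled RelaΔhepStat3Δhep, where it was 1.60, 2.00 and 1.49. The untreated livers labelled RelaΔhepStat3Δhep lay below every wild-type liver in Lox, and after DSS its level overlapped with that of both wild-type groups. DESeq2 also called Lox between the untreated genotypes (lower), Loxl4 between the genotypes after DSS (higher) and both for the difference in response, none of which edgeR called.

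Of 35 tested genes of other matrix proteins, 3 rose and 1 fell with DSS in livers labelled RelaΔhepStat3Δhep in edgeR (11.4%; all genes 7.03% in either direction), with a median of 0.18. DESeq2 called 3 of the 35 with DSS in wild-type livers (Eln, Fn1 and Postn), 5 with DSS in livers labelled RelaΔhepStat3Δhep, 1 between the untreated genotypes, 5 after DSS and 6 for the difference in response, which is 11.4% of the tests against 5.43% over all genes. limma-voom called 5, all with DSS in livers labelled RelaΔhepStat3Δhep (all genes 10.2%). The 3 were Vcan, the proteoglycan versican, by 3.19 (SE 0.40, edgeR adjusted p = 0.00136), Thbs1, thrombospondin 1, by 1.55 (SE 0.33, adjusted p = 0.0177), and Fbn1, fibrillin 1 of the microfibrils, by 0.69 (SE 0.18, adjusted p = 0.0407). Lama3, a laminin chain, fell by 2.36 (SE 0.43, edgeR adjusted p = 0.00988). Vcan stood at 0.479, 0.469 and 0.310 CPM untreated and at 5.32, 3.47 and 2.70 CPM after DSS, against 0.697 to 1.21 CPM and 1.26 to 2.90 CPM in untreated and DSS-treated wild-type livers. Thbs1 stood at 1.30 to 3.45 CPM untreated and at 5.37 to 10.9 CPM after DSS, against 4.14 to 4.50 CPM and 5.06 to 6.54 CPM in wild-type livers. Fbn1 stood at 7.03 to 8.77 CPM and at 10.95 to 13.2 CPM, against 10.6 to 13.9 CPM and 8.58 to 13.5 CPM in wild-type livers, and Lama3 at 4.33 to 11.6 CPM and at 1.23 to 2.09 CPM, against 3.42 to 9.55 CPM and 5.37 to 8.22 CPM. In Vcan, Thbs1 and Fbn1 the untreated livers labelled RelaΔhepStat3Δhep lay below every untreated wild-type liver. Thbs1 was not called without untreated replicate 2 or DSS-treated replicate 1 or 2 of the livers labelled RelaΔhepStat3Δhep, at 1.76, 1.58 and 1.25, Lama3 not without DSS-treated replicate 1, at -2.29, and Fbn1 was called in 5 of 12 such fits, at 0.63 to 0.80. None of these 4 genes, Lox or Loxl4 was called with the covariate for sex-linked transcripts, where Vcan stood at 2.87, Thbs1 at 1.56, Fbn1 at 0.98, Lox at 2.60, Loxl4 at 3.23 and Lama3 at -0.88 on the log2 scale.

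In no comparison did edgeR call a gene of the lists of collagen breakdown and its inhibitors (15 tested), collagen receptors (9) or TGF-β ligands, receptors and targets (21). Summed over the 5 comparisons, 22 of 75, 5 of 45 and 20 of 105 tests of these lists had an unadjusted p under 0.05 (29.3%, 11.1% and 19.05%), against 16.2% over all genes. DESeq2 called 9, 2 and 5 of them, against 5.43% of all tests, and limma-voom 3, 0 and 1, against 2.49%. Of the 9 DESeq2 calls in the breakdown list, 7 were with DSS in livers labelled RelaΔhepStat3Δhep (Mmp8, Mmp9, Mmp12, Mmp13, Mmp15, Prep and Timp1), which is 46.7% of the 15 genes against 13.1% of all genes. Their medians with DSS were 0.11, -0.03 and 0.15 in wild-type livers and 0.27, 0.21 and 0.10 in livers labelled RelaΔhepStat3Δhep.

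**Figure D5:**
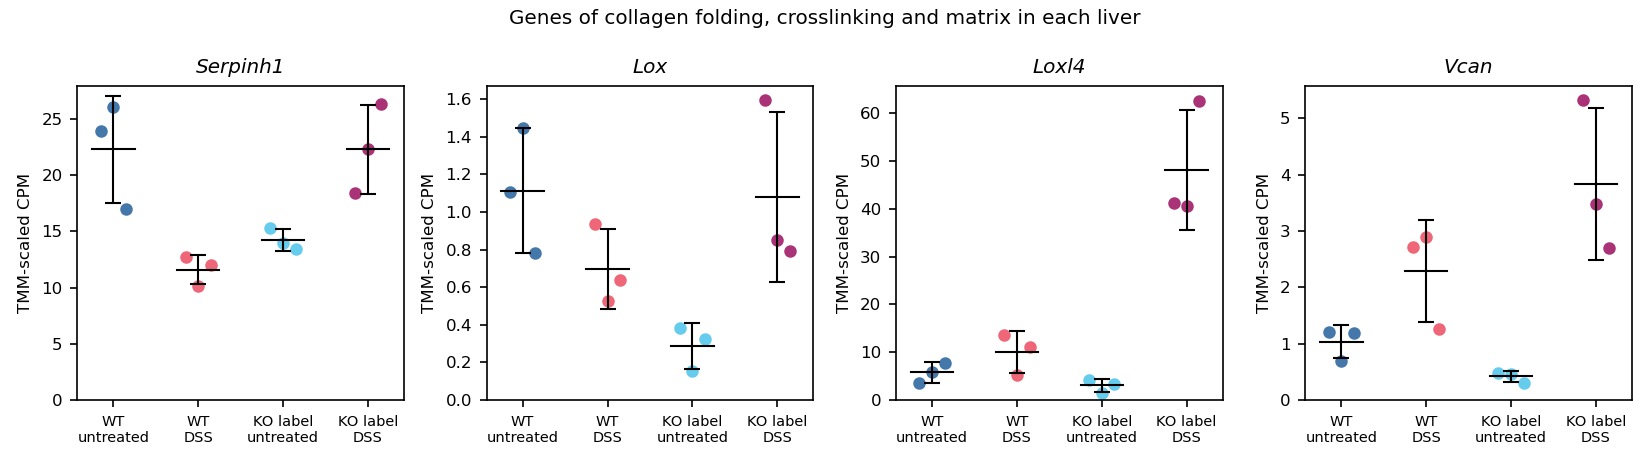
TMM-scaled CPM of Serpinh1, Lox, Loxl4 and Vcan in each liver (points), with the mean and SD of 3 livers (black). Loxl4 lies at 40.7 to 62.7 CPM in DSS-treated livers labelled RelaΔhepStat3Δhep and at 1.56 to 13.7 CPM in the other 9.

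Markers of the cells that make or border matrix were measured in the same livers. Of 12 stellate cell markers, Nes, an intermediate filament gene, fell with DSS in wild-type livers by 2.03 on the log2 scale (SE 0.33, edgeR adjusted p = 0.0162), and Des, desmin, rose in livers labelled RelaΔhepStat3Δhep by 1.98 (SE 0.42, edgeR adjusted p = 0.0179), with 1 of the 3 DSS-treated livers at 28.2 CPM and the others at 8.59 and 7.10. Without the liver at 28.2 CPM the rise of Des was 1.08. Without any 1 of the 3 untreated livers labelled RelaΔhepStat3Δhep it was not called, at 1.97, 2.11 and 1.87. It was also not called in the fit of only the groups compared (1.96, edgeR adjusted p = 0.0712) or with the covariate for sex-linked transcripts (1.90, edgeR adjusted p = 0.429), and its adjusted p ran from 6.46e-05 to 0.429 over the alternatives. Nes was not called without untreated wild-type replicate 2 or 3, at -1.76 and -2.06. Its call also ended in the fit of only the groups compared (-2.03, edgeR adjusted p = 0.133) and among the livers with low Xist (-2.06, edgeR adjusted p = 0.129). With 2 wild-type livers left out it was -1.78 (edgeR adjusted p = 0.0554), and the adjusted p ran from 7.29e-07 to 0.133 over the alternatives. The DSS response of Nes was higher in livers labelled RelaΔhepStat3Δhep than in wild-type livers by 2.79 (SE 0.46, edgeR adjusted p = 0.0246), called in 5 of 12 fits with 1 liver left out, at 2.50 to 3.16, and not with the covariate for sex-linked transcripts, at 2.92. Over the 12 stellate cell markers, 8 were positive and 4 negative with DSS in livers labelled RelaΔhepStat3Δhep. At an unadjusted p under 0.05 in edgeR, 6 were higher and 2 lower there (66.7%; all genes 24.1% in either direction). Reln was lower there without overlap, at 176.5, 174.7 and 149.9 CPM untreated and 115.0, 137.1 and 115.4 CPM after DSS. In wild-type livers 4 of the 12 were positive and 8 negative. The 6 markers of activated myofibroblasts and smooth muscle summed to 11.5 to 22.2 CPM in untreated wild-type livers, 3.31 to 11.1 after DSS, 6.47 to 13.9 in untreated livers labelled RelaΔhepStat3Δhep and 13.4 to 41.0 after DSS, and Acta2, which defines the activated state, was above 0 in every liver, at 0.0796 CPM in the lowest. Portal fibroblast markers (7) summed to 10.97 to 24.1, 5.73 to 10.8, 6.83 to 9.11 and 7.96 to 15.4 CPM in that order. In both of these lists the untreated wild-type livers lay above the DSS-treated wild-type livers, as for Sparc. The sum of 6 cholangiocyte markers went the other way, at 18.1 to 26.6 CPM untreated and 29.5 to 33.9 CPM after DSS in wild-type livers. The list as a whole did not, since of its 5 tested markers 2 were positive and 3 negative in wild-type livers. Their median log2 fold change was -0.158. Mesothelial markers (6) overlapped there, at 2.43 to 9.66 and 3.17 to 9.11 CPM. Of 7 Kupffer cell markers, 6 (Clec4f, Cd5l, Marco, Vsig4, Timd4 and Cd68) rose with DSS in livers labelled RelaΔhepStat3Δhep in edgeR, where 4.57% of all genes passed as higher. The 6 rose by 0.89 to 2.49 on the log2 scale, and the list went from a summed 286.4 to 316.7 CPM to 579.0 to 936.2 CPM. The list summed to 237.5 to 497.9 CPM in untreated and 383.9 to 849.2 CPM in DSS-treated wild-type livers, which overlapped. These 6 calls were kept in 4 to 9 of 12 fits with 1 liver left out, and in none with the covariate for sex-linked transcripts, at 1.08 to 2.92. Alas2, an erythroid gene of heme synthesis, fell there by 2.68 (SE 0.59, edgeR adjusted p = 0.0270), kept in 7 of 12 such fits and not with that covariate, where it was -1.35. The part of these markers in the collagen results was not tested.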

How the data were processed

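Liver RNA, depleted of rRNA, was sequenced as paired-end reads from 12 mice, 3 per group. The authors trimmed reads with fastp, aligned them to mm9 with HISAT2 and made the gene table with StringTie, and they deposited estimated counts that are already whole numbers, so no rounding was needed. The annotation release and strand setting are not given in the sources used here. Symbols, coordinates and exon lengths came from GENCODE vM1 (mm9), which names 28677 of 51609 rows and leaves 22932 unnamed. Members and lists were chosen with earlier results of these data known.

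In R 4.3.3, edgeR 4.0.16 (filterByExpr, TMM, robust quasi-likelihood F tests, 4 groups in 1 model) gave 5 comparisons over 17652 genes, with Benjamini-Hochberg adjusted p under 0.05 as the threshold. DESeq2 1.42.0 and limma 3.58.1 (voom with quality weights) were alternatives, with other scaling, filters, gene types and samples, a replicate block, a covariate for sex-linked transcripts (Xist above 100 CPM) and each liver left out. Fits were tested on simulated data. The study calls the 3 samples of a group biological replicates. The tests set each difference against the spread between livers within groups, estimated over the 4 groups together. Library totals of 65879529 to 82850098 limit precision mainly for members under 1 CPM.

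Sparc, the 12 members with the highest mean CPM and every member that edgeR called in any comparison were given in every liver. Genes of other lists were named where called or where they define a cell type.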

Additional observations from a re-analysis of the deposited data

Results flagged for a closer look

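The DSS response of 2 members differed between the genotypes by a test of the difference itself. For Sparc the response was 1.40 higher on the log2 scale in livers labelled RelaΔhepStat3Δhep than in wild-type livers (SE 0.15, edgeR adjusted p = 0.00248), with 3 of 3 livers lower after DSS in wild-type and 3 of 3 higher in the other genotype. For Col5a2 the difference was 2.00 (SE 0.37, edgeR adjusted p = 0.0431). In both, the 3 DSS-treated livers labelled RelaΔhepStat3Δhep were also the 3 livers with high Xist and no more than 0.120 CPM of Y-linked transcripts, so genotype-by-treatment and sex cannot be told apart.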

How the results depend on the processing

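None of 661 recomputed log2 fold changes (of Sparc and of every gene that passed in edgeR as reported, apart from sex-linked transcripts) changed sign over 23 alternatives, while 5 of 111 recomputed medians over members did, all between the genotypes after DSS. With 1 liver left out, the members called ranged from 1 to 1 (DSS in wild-type), 1 to 4 (DSS in livers labelled RelaΔhepStat3Δhep), 1 to 4 (genotypes untreated), 0 to 2 (genotypes after DSS) and 1 to 2 (difference in response). Over the same 5 comparisons DESeq2 called 2, 5, 6, 3 and 5 (all genes 4.87%, 13.1%, 1.89%, 3.30% and 3.95%). limma-voom called 4 with DSS in livers labelled RelaΔhepStat3Δhep (all genes 10.2%) and 5 between untreated genotypes (0.538%). It called 1 between genotypes after DSS (0.164%) and 3 for the difference in response (0.368%). Fits of only the groups compared called 4 with DSS in livers labelled RelaΔhepStat3Δhep and 5 between untreated genotypes. Without a filter 2 members were called between untreated genotypes and 1 after DSS. The covariate for sex-linked transcripts, whose effect rests on untreated wild-type replicate 3 alone, gave 0 with DSS in livers labelled RelaΔhepStat3Δhep and 0 for the difference in response. In fits chosen after seeing the data, leaving out untreated wild-type replicate 3 and DSS-treated wild-type replicate 2 gave 4 with DSS in livers labelled RelaΔhepStat3Δhep and 6 between untreated genotypes, and the 8 livers with low Xist gave 0 between untreated genotypes. With the replicate number as a block, 2 members were called between untreated genotypes (Sparc and Col4a2), and the counts of the other 4 comparisons did not change. The block ended 3 of the 4 Serpinh1 calls (edgeR adjusted p of 0.0582 and 0.0686 with DSS in wild-type livers and livers labelled RelaΔhepStat3Δhep, 0.0662 between genotypes after DSS), and those of Marco (0.0670) and Alas2 (0.0584) with DSS in the latter livers. The numbers are not said to pair the mice. Same-numbered livers of different groups correlated at -0.09 to 0.17 in their deviations from the group means. Differently numbered livers were not set beside them, so these values cannot decide whether the numbers pair mice. Why the calls changed between these fits was not tested. Of 111 medians over members, 13 moved by more than 0.133, the spread between livers.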
